A study of Homo sapiens with 18 samples.

Results

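The RNA levels of the 3 D-type cyclins, CCND1, CCND2 and CCND3, and of their partner kinases, CDK4 and CDK6, were followed through treatment with a CDK4/6 inhibitor and an MDM2 antagonist. The 5 genes were chosen by symbol, and all 5 were found among the 23368 genes of the count tables. The cells were SJSA-1, a human osteosarcoma line in which the neighbouring MDM2 and CDK4 genes are amplified. Control cells received the solvent DMSO. Nutlin, which keeps MDM2 from binding p53, was given at 20 µM for 6 h (the dose in the labels, while the study's scheme also lists a lower one). PD0332991 (Palbociclib), which blocks the kinase activity of CDK4 and CDK6, was given at 10 µM, either for 30 h (PD30) or for 24 h (PD24). In the study's scheme, the PD24 cells spent the last 6 h without the inhibitor. Nutlin was combined with each schedule in the last 6 h (N+PD30 and N+PD24). Each of the 6 conditions had 3 libraries, 18 in all. The study calls the replicates biological triplicates, but neither it nor the labels say whether they were separate cultures, so the p-values measure only the spread between these libraries. All data came from this single line and from RNA, so they say nothing on protein amount or kinase activity.

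D-type cyclins are made in response to growth signals and bind CDK4 or CDK6. The active complexes phosphorylate RB and its relatives, which then release E2F transcription factors, and genes for S phase are switched on. INK4 proteins bind CDK4 and CDK6 and keep cyclins away, whereas p21 and p27 bind the assembled complexes.

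Library totals ranged from 12704845 to 40231041 counts, and the 5 genes had between 525 and 104398 counts in every library. The cells carried RNA of the osteoblast lineage and mesenchyme list, with COL1A1, SPARC and VIM each at or above 1122 CPM (counts scaled to a library total of 1000000) throughout, but 3 of the 10 markers on it were at or near 0. These were SP7, BGLAP and IBSP, none of which exceeded 0.244 CPM. The 6 markers of other cell types summed to between 1.35 and 2.60 CPM in the 4 conditions DMSO, PD24, PD30 and N+PD30. In Nutlin and N+PD24 this sum was higher, from 3.40 to 4.68 CPM, and CD3E was at 0 in 16 libraries. MDM2, CDKN1A and TP53I3, which p53 activates, rose by 3.27, 4.56 and 3.29 on the log2 scale in Nutlin against DMSO. The 6 proliferation markers summed to between 2620 and 2853 CPM in DMSO, 1409 to 2017 in Nutlin, 42.2 to 64.8 in PD30 and 35.1 to 41.6 in PD24. These markers thus fell with PD0332991 and, to a lesser extent, with Nutlin, and their part in the results given here was not tested. In such bulk samples, fewer cells with an RNA and less of it per cell cannot be told apart.

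The gene for CDK4 lies on the minus strand at chr12:58141510-58149796 and that for CDK6 on the minus strand at chr7:92234235-92465887 of GRCh37, the build of the deposited counts (hg19). CCND1 (chr11:69455924-69469242, plus strand), CCND2 (chr12:4378937-4414519, plus strand) and CCND3 (chr6:41902672-42018095, minus strand) are the cyclin genes. Promoter windows of RefSeq on GRCh38.p14 covered 3 of the 5 genes, namely CCND3, CDK4 and CDK6, and CCND1 and CCND2 were not matched. The 250 bases before the start of CDK4 (chr12:57752311-57752560, minus strand) and before the upstream one of 2 starts of CDK6 (chr7:92836574-92836823, minus strand) are printed. They were chosen because the levels of these 2 kinases moved in opposite directions in PD30 against DMSO. Capitals mark the E-box CACGTG and the Sp1 GC box GGGCGG, the latter on either strand.
CDK4: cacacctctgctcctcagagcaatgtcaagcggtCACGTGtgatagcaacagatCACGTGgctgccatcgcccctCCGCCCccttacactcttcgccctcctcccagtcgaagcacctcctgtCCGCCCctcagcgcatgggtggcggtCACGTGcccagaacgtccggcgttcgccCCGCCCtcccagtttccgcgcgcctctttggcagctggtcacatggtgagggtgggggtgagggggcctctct
CDK6: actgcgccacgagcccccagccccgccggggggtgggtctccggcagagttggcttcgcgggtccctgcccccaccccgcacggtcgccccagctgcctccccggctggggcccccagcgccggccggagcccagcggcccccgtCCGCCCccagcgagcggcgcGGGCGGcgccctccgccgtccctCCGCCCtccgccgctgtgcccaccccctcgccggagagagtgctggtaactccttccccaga

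The CDK4 window held 3 E-boxes and 3 Sp1 GC boxes, with no overlap between them. The CDK6 window held 3 Sp1 GC boxes and no E-box. An E-box, the core site of MYC and related factors, was found in 6.34% of 35116 promoter windows of the same length, and an Sp1 GC box in 42.6%. The E-box was added to the search after the CDK4 window had been read. Neither window contained a CRE (TGACGTCA, in 1.65% of windows), an AP-1 site (TGACTCA, 4.20%), an E2F site (TTTCCCGC, TTTGGCGC, TTTCGCGC or TTTGCCGC, 2.79%), a CHR element (TTTGAA, 13.3%) or a p53 half-site (5.57%), on either strand. The 3 windows of CCND3 held 5, 2 and 0 Sp1 GC boxes and none of the other motifs, and the second CDK6 window held none at all. These matches describe letters, not binding.

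To compare levels between genes, CPM was divided by the length in kilobases of 1 representative transcript, giving RPKM. In DMSO, CDK4 had 1565 ± 177 RPKM (SD, n = 3) and ranked 11 among 16854 genes. CCND1 followed at 243 ± 9.17 RPKM, CCND3 at 42.8 ± 4.53, CDK6 at 20.8 ± 0.171 and CCND2 at 4.15 ± 0.375. The transcript used for CCND3 has 2026 bases, but the merged exons of all its annotated transcripts have 5761. For CDK6 these lengths are 11663 and 12239 bases, so the order of CCND3 and CDK6 depends on the length chosen. The CDK4 RNA thus exceeded the summed RNA of the 3 cyclins, by 4.49 to 6.08 times in the DMSO libraries. Every library with the inhibitor lay below this range, with 3.14 to 3.28 times in PD30. In PD30, CCND2 reached 20.6 ± 3.12 RPKM, with CCND3 at 27.2 ± 5.31 and CDK6 at 25.8 ± 2.30. These 3 scarcer members lay close together by this length, and the place of CCND3 among them again depends on it.

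Differences between conditions were tested gene by gene across the whole transcriptome, and a gene passed at a Benjamini-Hochberg adjusted p under 0.05. PD30 against DMSO passed for all 5 members, against a background of 48.3% of 15125 genes tested. CCND1, CCND2 and CDK6 rose (22.9% of all genes passed as higher) and CCND3 and CDK4 fell (25.4% passed as lower). In PD24 against DMSO, CCND1, CCND2 and CDK6 rose, 3 of 5 members against 38.3% of all genes. Nutlin against DMSO passed for 1 member, CCND3, whereas 54.6% of all genes passed, 26.6% as higher and 28.0% as lower. With library totals in place of TMM scaling, the share of higher genes among those that passed went from 48.7% to 36.7%, and the median of all genes from 0.03 to -0.10 on the log2 scale.

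With Nutlin present in both groups, N+PD30 against Nutlin passed for 1 member, CCND2, against 49.0% of all genes, 24.3% higher and 24.7% lower. N+PD24 against Nutlin passed for CCND1, CCND2 and CDK6, against 34.3% of all genes. With the replicate number as a block, 8443 genes passed there in place of 5459. Between the schedules, PD30 against PD24 passed for CCND2 and CCND3 (25.2% of all genes), and for CCND1 and CDK6 in addition with the block, with which 6107 genes passed in place of 3816. N+PD30 against N+PD24 passed for CCND2 and CDK6 (32.1%). Adding Nutlin to the inhibitor passed for CDK6 in N+PD30 against PD30 (14.5%, or 4375 genes in place of 2183 with the block) and for CCND2 in N+PD24 against PD24 (37.0%). The interaction, which is the Nutlin response with the inhibitor minus that without it, passed for CCND3 with PD30 (19.8%) and for none of the 5 members with PD24 (1.75%). With PD24, none of the 5 had an unadjusted p under 0.05 in limma, and none passed with edgeR on the recovered reads. These comparisons share control libraries and are not independent of each other.

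**Figure D1:**
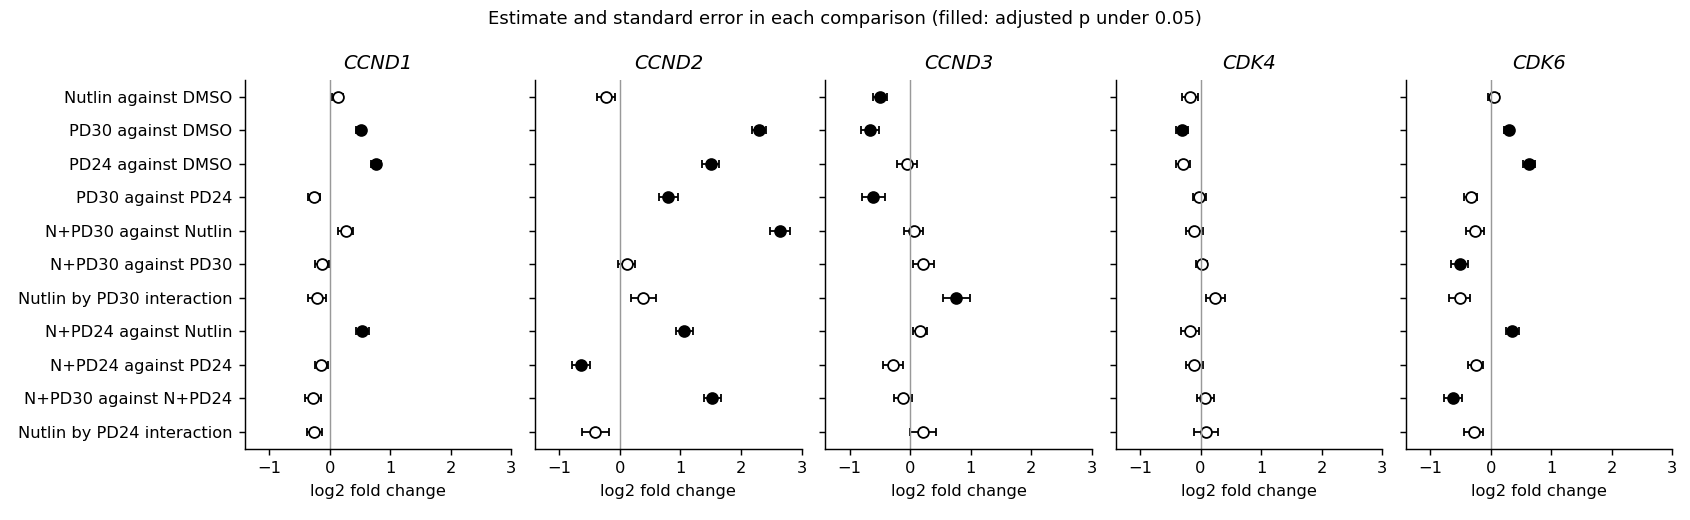
Log2 fold change (horizontal axes) of each gene in the 9 comparisons of groups and the 2 interactions, with the standard error as a bar and filled points for an adjusted p under 0.05. CCND2 spans from -0.64 to 2.64, whereas the estimates for CDK4 lie between -0.31 and 0.25.

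CCND2 showed the widest range of the 5 genes. It encodes cyclin D2, the D-type cyclin best known from lymphoid and gonadal cells. The DMSO libraries had 29.6, 26.3 and 24.9 CPM and the Nutlin libraries 25.3, 18.5 and 19.3 CPM. These groups overlapped at 1 library, and the difference of -0.23 on the log2 scale did not pass (edgeR adjusted p = 0.201). The PD30 libraries had 130.2, 115.6 and 155.7 CPM and those of N+PD30 119.3, 125.6 and 162.4 CPM. These 6 libraries lay above every other library of the series. CCND2 was 4.91-fold higher in PD30 than in DMSO (log2 difference 2.30 ± 0.12, here and in the following ± SE, edgeR adjusted p = 5.02e-07). With its sign, this log2 difference was above that of 99.4% of genes tested, a share that includes all genes that fell. Against Nutlin alone, N+PD30 was 6.25-fold higher (log2 2.64 ± 0.17, edgeR adjusted p = 6.51e-07).

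The level of CCND2 also followed the schedule of the inhibitor. The PD24 libraries had 91.3, 63.1 and 70.3 CPM and the N+PD24 libraries 47.2, 38.6 and 42.5 CPM. PD24 lay clear of DMSO below it and of PD30 above it, and N+PD24 lay between DMSO and PD24 without overlap. PD24 was 2.82-fold above DMSO (log2 1.50 ± 0.15, edgeR adjusted p = 7.76e-05). PD30 was 1.74-fold above PD24 (log2 0.80 ± 0.15, edgeR adjusted p = 0.00571). In the presence of Nutlin the schedules differed by 2.88-fold (log2 1.52 ± 0.14 on the scale of log2(CPM + 1), limma adjusted p = 1.85e-04). In N+PD24 against PD24, CCND2 fell by 0.64 ± 0.16 on the log2 scale (limma adjusted p = 0.00886). In N+PD30 against PD30, the log2 difference of 0.11 ± 0.14 did not pass (edgeR adjusted p = 0.611). Neither interaction passed for CCND2, at 0.39 ± 0.21 with PD30 (edgeR adjusted p = 0.219) and -0.40 ± 0.22 with PD24 (limma adjusted p = 0.490). Exons of CCND2 overlap those of CCND2-AS1 and of 2 genes without a symbol, and none of these 3 had a row of its own in the count tables.

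CCND1 encodes cyclin D1, the D-type cyclin most often amplified in tumours. Its levels were 1076, 1012.9 and 1005.1 CPM in DMSO and 962.6, 1067.3 and 1076 CPM in Nutlin. The ranges coincided, and the log2 difference was 0.13 ± 0.09 (edgeR adjusted p = 0.218). PD24 gave the highest level, at 1773.5, 1767 and 1651.1 CPM, clear of all other groups. PD30 followed at 1364.1, 1540.5 and 1556.4 CPM, N+PD24 at 1394.1, 1392.8 and 1494 CPM, and N+PD30 at 1404, 1185.4 and 1238.9 CPM, each overlapping the next. All 12 libraries with the inhibitor lay above all 6 without it. Against DMSO, CCND1 rose on the log2 scale by 0.77 ± 0.08 in PD24 (edgeR adjusted p = 1.46e-04) and by 0.51 ± 0.08 in PD30 (edgeR adjusted p = 5.93e-04). N+PD24 was 0.54 ± 0.11 above Nutlin (limma adjusted p = 0.00398). The log2 difference of N+PD30 from Nutlin was 0.27 ± 0.13 and did not pass (edgeR adjusted p = 0.109), although it passed with library totals (0.0452) and with 15 libraries in 1 fit (0.0404). PD30 was lower than PD24 in every library, by 0.26 ± 0.10 on the log2 scale. This difference passed with the replicate block (edgeR adjusted p = 0.0254) and not without it (0.0799). The interactions of CCND1 were -0.21 ± 0.14 with PD30 (edgeR adjusted p = 0.341) and -0.26 ± 0.12 with PD24 (limma adjusted p = 0.408). The gene on the opposite strand whose exons overlap those of CCND1, LTO1, had no row under this symbol.

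CCND3 encodes cyclin D3 and moved opposite to the other cyclins in PD30. In DMSO it had 91.0, 92.8 and 76.1 CPM, compared with 49.3, 59.5 and 60.1 CPM in Nutlin and 50.9, 67.3 and 47.0 CPM in PD30. Every treated library of these 2 groups lay below every DMSO library. The fall was 0.50 ± 0.12 on the log2 scale in Nutlin (edgeR adjusted p = 0.00473) and 0.67 ± 0.15 in PD30 (edgeR adjusted p = 0.00425). PD24 libraries had 92.4, 91.1 and 62.4 CPM. They spread over the DMSO range and down into that of PD30, and the log2 difference from DMSO was -0.05 ± 0.17 (edgeR adjusted p = 0.823). PD30 was 0.61 ± 0.19 below PD24 on the log2 scale (edgeR adjusted p = 0.0444), a call that was lost without PD24 replicate 1 or 2 or PD30 replicate 1 or 3, with adjusted p from 0.107 to 0.144.

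In the combined groups, N+PD24 had 56.1, 65.2 and 58.4 CPM and N+PD30 had 59.5, 69.8 and 50.6 CPM, both overlapping Nutlin and PD30. On the log2 scale, N+PD30 differed from Nutlin by 0.06 ± 0.15 (edgeR adjusted p = 0.783) and from PD30 by 0.22 ± 0.18 (edgeR adjusted p = 0.418). The interaction of Nutlin with PD30 was 0.76 ± 0.23 (edgeR adjusted p = 0.0304, 95% interval from 0.28 to 1.25). The Nutlin response of CCND3 was thus -0.50 without PD30, whereas with PD30 it was 0.22 and did not pass. In 6 of the 12 fits that each left out 1 library this interaction no longer passed, with a value from 0.63 to 0.73 and adjusted p up to 0.0876, and it was also lost with 15 libraries in 1 fit (0.69, adjusted p = 0.0778). With PD24 the interaction was 0.21 ± 0.21 (limma adjusted p = 0.752). On the log2 scale N+PD24 was 0.29 ± 0.16 below PD24, which passed with the replicate block (limma adjusted p = 0.0374) and not without it (0.184).

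For CDK4, only PD30 against DMSO passed among the 11 tests. The DMSO libraries had 2542, 3053.9 and 3160 CPM, and those of Nutlin 1964.8, 2400.6 and 2742.2 CPM. These groups overlapped, and the log2 difference was -0.18 ± 0.13 (edgeR adjusted p = 0.264). PD30 libraries had 2244.2, 2478.8 and 2425.9 CPM, all below DMSO, and CDK4 fell by 0.31 ± 0.09 on the log2 scale (edgeR adjusted p = 0.0231). This call was lost without DMSO replicate 2 (adjusted p = 0.0862), DMSO replicate 3 (0.0719) or PD30 replicate 1 (0.0900), and with 15 libraries in 1 fit (0.0622). PD24 had 2050.5, 2428.7 and 2595 CPM, N+PD24 1701.2, 2025.5 and 2263.7 CPM, and N+PD30 2120.5, 2321.2 and 2361.8 CPM. These 3 groups and those of Nutlin and PD30 overlapped in the order of their means. PD24 differed from DMSO by -0.28 ± 0.12 on the log2 scale, close to PD30, and did not pass (edgeR adjusted p = 0.0838). This difference passed with the replicate block (0.00697) and without DMSO replicate 1 (0.0396). Between the schedules, PD30 against PD24, the log2 difference was -0.02 ± 0.11 (edgeR adjusted p = 0.907). No other comparison passed for CDK4, and the 95% interval of N+PD30 against PD30 ran from -0.19 to 0.23. TSPAN31, whose exons overlap those of CDK4 on the opposite strand, had 234 to 262 CPM in DMSO and 302 to 565 CPM in the treated libraries. The authors counted with HTSeq's setting for reverse-stranded reads. Whether the TruSeq RNA LT kit they used kept the strand was not given in the sources used here, and how reads of this overlap were assigned was not tested.

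CDK6 is the second kinase of the pair and a target of the same inhibitor. In DMSO its levels were 240.8, 244.7 and 243.3 CPM, and in Nutlin 253.3, 221.4 and 215.2 CPM. The log2 difference of 0.05 ± 0.09 did not pass (edgeR adjusted p = 0.679), and it was -0.08 when library totals were used. PD24 had the highest levels, at 413.5, 329.9 and 364.8 CPM, followed by PD30 at 290.1, 281.2 and 331.4 CPM and N+PD24 at 296.3, 257.2 and 287.4 CPM. These 9 libraries exceeded all 6 without the inhibitor. Against DMSO, the log2 rise was 0.63 ± 0.10 in PD24 (edgeR adjusted p = 0.00108) and 0.29 ± 0.08 in PD30 (edgeR adjusted p = 0.0127). The rise in PD30 missed the threshold with 15 libraries in 1 fit (edgeR adjusted p = 0.0592). N+PD30 was the exception among the inhibitor groups, at 154.7, 209.1 and 231.1 CPM, all below DMSO, with which they were not compared by a test, and overlapping Nutlin.

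Thus CDK6 was lower in N+PD30 than in N+PD24 by 0.63 ± 0.14 on the log2 scale (limma adjusted p = 0.00957), and every library of the former lay below every library of the latter. N+PD30 was also 0.51 ± 0.14 below PD30 (edgeR adjusted p = 0.0420), a call that was lost in 5 of 6 fits leaving out 1 library, all but that without N+PD30 replicate 3, with adjusted p from 0.0578 to 0.145. Without N+PD30 replicate 1, the lowest and least deeply sequenced library, the difference was -0.36. The interaction with PD30 was -0.51 ± 0.17 and did not pass (edgeR adjusted p = 0.0559), but it did with the replicate block (0.0458), with DESeq2 (0.0166), with RLE size factors (0.0342) and with 15 libraries in 1 fit (0.0340). Of 12 fits that each left out 1 library, only 2 passed, with adjusted p from 0.0265 to 0.130 over all 12. In 12 of the 18 alternatives this interaction still did not pass. N+PD24 was 0.36 ± 0.11 above Nutlin on the log2 scale (limma adjusted p = 0.0340). This call was lost with library totals (0.0548), without the filter on low values (0.0881), without the intensity trend (0.0526), and without any 1 of Nutlin replicates 2 and 3 and N+PD24 replicates 1, 2 and 3 (0.0620 to 0.128). PD30 was 0.33 ± 0.11 below PD24, which passed with the replicate block (edgeR adjusted p = 0.0154) and not without it (0.0510). N+PD24 was 0.25 ± 0.12 below PD24, which likewise passed with the block (limma adjusted p = 0.0256) and not without it (0.134).

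The composition of the D-type cyclin pool changed with these levels. Per kilobase, CCND1 made up between 82.7% and 90.9% of the 3 cyclins in every library. CCND3 was second in DMSO, at 14.7% ± 1.19 (SD, n = 3), and CCND2 made up 1.43% ± 0.068. In PD30 the share of CCND2 was 5.18% ± 0.783 and that of CCND3 6.82% ± 1.21. The CCND2 share ranged from 4.30% to 7.30% in the 6 libraries of PD30 and N+PD30 and from 1.00% to 2.94% in the other 12, without overlap. With the merged exons of all annotated transcripts as the length, chosen after seeing the data, CCND3 held 6.39% in DMSO and 2.83% in PD30, and CCND2 held 1.43% and 4.96%. The share of CCND3, and its order with CCND2 in PD30, thus depend on the transcript assumed. The sum of the 3 cyclins was 279 to 303 RPKM in DMSO, 255 to 287 in Nutlin and 334 to 478 in the libraries with the inhibitor. The ratio of CDK6 to CDK4 RNA per kilobase was 0.0123 to 0.0151 in DMSO, 0.0217 to 0.0322 in PD24 and 0.0181 to 0.0218 in PD30. In N+PD30 it was 0.0117 to 0.0156, which overlapped DMSO, and in N+PD24 it was 0.0203 to 0.0278. These shares and ratios were not tested.

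Around these genes, the other parts of the pathway were counted on lists from general knowledge, to be read against the 48.3% of all genes that passed in PD30 against DMSO and the 54.6% in Nutlin against DMSO. Of 22 E2F and G1/S genes, 21 fell in PD30 against DMSO and 1 did not pass, with a median of -4.02 on the log2 scale against 0.0020 over all genes. CCNE2, which encodes a cyclin that drives CDK2, fell by 6.99 ± 0.21 (edgeR adjusted p = 9.56e-09), and RRM2, a subunit of ribonucleotide reductase, fell by 6.64 ± 0.19 (edgeR adjusted p = 8.00e-09). In Nutlin against DMSO, 16 fell, 1 rose and 5 did not pass, with a median of -0.85 against 0.03 over all genes, and CCNE2 fell by 3.25 and the phosphatase gene CDC25A fell by 2.87. Of the 3 pocket proteins, the substrates of CDK4 and CDK6, 2 fell in PD30. RBL1 fell by 2.78 ± 0.18 and RB1 fell by 1.18 ± 0.08. In Nutlin only RBL1 of these 3 passed, with a fall of 0.95 ± 0.12.

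The 7 CDK inhibitors did not move as a group. In PD30, 4 fell, 1 rose and 2 did not pass (background 48.3%), with a median of -0.57. The INK4 genes CDKN2C fell by 1.83 ± 0.10 and CDKN2D fell by 1.02 ± 0.15. In Nutlin, 2 rose, 3 fell and 2 did not pass (54.6%), led by a rise of CDKN1A (p21) by 4.56 ± 0.16 and a fall of CDKN2D by 1.12 ± 0.12. Of 6 genes for CDK folding and activation, 1 rose and 3 fell in PD30 (background 48.3%), where CDK7, the kinase of the CDK-activating complex, rose by 0.81 ± 0.08 and the chaperone HSP90AA1 fell by 0.67 ± 0.07. In Nutlin 3 of these rose and 2 fell (54.6%), with CDK7 falling by 0.48 ± 0.10 and CDC37, the chaperone that loads kinases onto HSP90, rising by 0.45 ± 0.14.

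Of 9 genes linked to D-type cyclin turnover, 4 rose and 2 fell in PD30 against a background of 48.3%, and 1 rose and 3 fell in Nutlin, 4 of 9 against 54.6%. CRYAB, a small heat shock protein, rose by 1.28 ± 0.34 in PD30 and 1.80 ± 0.34 in Nutlin from 1.37 CPM in DMSO. The F-box gene FBXO4 fell by 1.02 ± 0.13 in PD30, and FBXO31, another F-box gene, fell by 1.01 ± 0.13 in Nutlin. Of 14 transcription factors upstream of D-type cyclins, 2 rose and 7 fell in PD30 (median -0.44, background 48.3%), and 1 rose and 7 fell in Nutlin (median -0.43, background 54.6%). The immediate early genes EGR1 fell by 2.26 ± 0.31 and FOS fell by 2.03 ± 0.24 in PD30, from 1.99 and 1.79 CPM in DMSO. In Nutlin FOS fell by 2.20 ± 0.31 and MYC fell by 1.85 ± 0.21, the latter from 37.0 to 9.43 CPM.

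**Figure D2:**
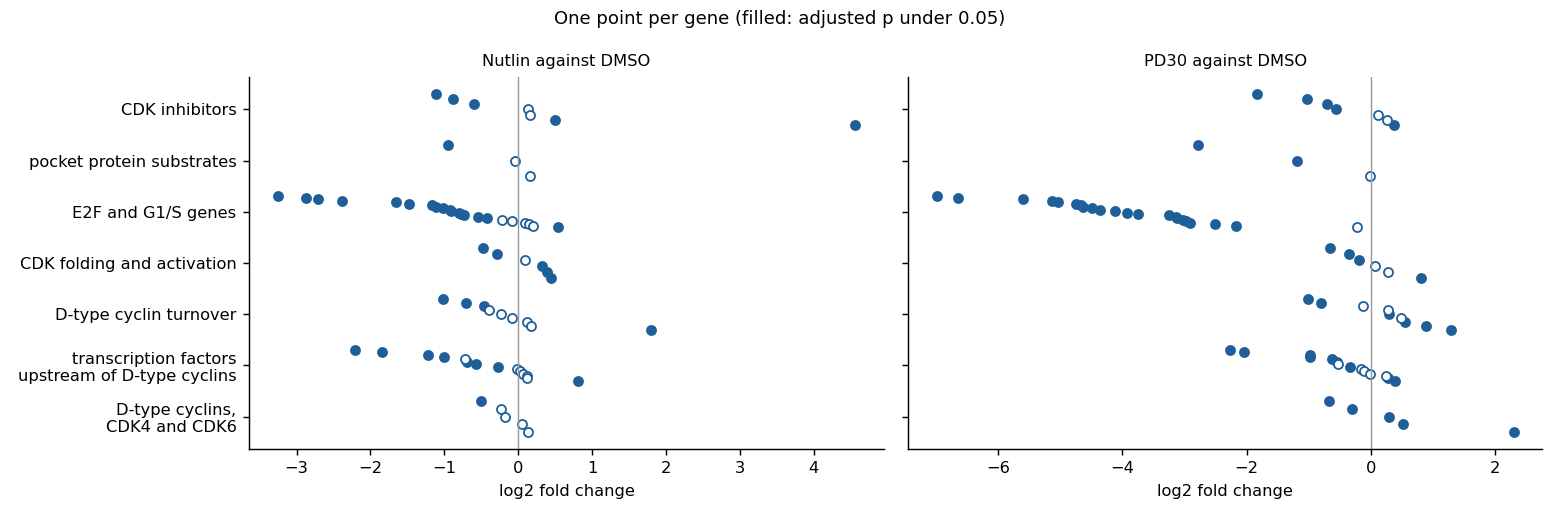
Log2 fold change (horizontal axes) of every tested gene of 6 pathway lists and of the 5 members in Nutlin against DMSO (left) and PD30 against DMSO (right), 1 point per gene, filled for an adjusted p under 0.05. In PD30 the E2F and G1/S genes reach -6.99 while CCND2 stands at 2.30.

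The 5 genes did not share 1 pattern over the 18 libraries. The highest Pearson correlation of log2(CPM + 1) among them was that of CCND1 with CDK6 (r = 0.63), followed by CCND1 with CCND2 (r = 0.62), and the lowest was that of CCND1 with CDK4 (r = -0.34). Such values describe libraries that share conditions, and they carry no test. Among 13559 genes with a mean of at least 1 CPM, those most like CCND2 were ZMYM6NB (r = 0.97), WIPI1 (r = 0.96) and TMEM120B (r = 0.96). WIPI1, which acts in autophagy, had a mean of 42.0 CPM in DMSO, 68.0 in PD24 and 129 in PD30. For CCND1 these were TFAP2A (r = 0.92), P2RX5 (r = 0.91) and IL12A (r = 0.91), and for CCND3 TEAD4, TOMM40 and PPCDC (r = 0.86, 0.86 and 0.85). The closest to CDK4 were DIP2A, ARAP3 and MCM3AP (each r = 0.93), and the closest to CDK6 were UBE2E1, RSL1D1 and RRAS2 (r = 0.91, 0.91 and 0.90).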

How the data were processed

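RNA of SJSA-1 cells had been sequenced in 18 libraries. The authors mapped reads to hg19 with TopHat and Bowtie2 and counted them per gene with HTSeq 0.6.0 in its reverse-stranded setting. They deposited counts for all groups but N+PD24, whose deposited values are a normalized signal, namely counts divided by 1 factor per library. Whole reads were recovered from 100% of these values, within 0.01. Base-mean tables and a table of the authors' own DESeq2 comparison (fold changes, p-values) were not used.

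CPM is relative to the library total. RPKM used the representative (MANE Select) transcript of GENCODE on GRCh37. Tests between count groups used the quasi-likelihood method of edgeR 4.0.16 (R 4.3.3, TMM, filterByExpr, no replicate block). Tests with N+PD24 used limma 3.58.1 on log2(CPM after TMM + 1) with its trend option. P-values were adjusted over all genes tested. Alternatives were DESeq2 1.42.0, other scalings, filters and pseudocounts, wider fits, the replicate block, and leaving out each library.

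Members and lists were chosen with earlier results of these data known. Named genes are the members, the 3 most like each by correlation, up to 2 per list with the largest change among those that passed in PD30 or Nutlin against DMSO, and genes whose exons overlap a member. Same-numbered replicates deviated together (every r above 0.1) in PD30 with PD24 (lowest r = 0.32), N+PD30 with PD30 (0.21), N+PD24 with Nutlin (0.47) and N+PD24 with PD24 (0.22), where the blocked value is given if it changes a call. Of the pairs of groups in the interactions, Nutlin with PD30 (0.33) and DMSO with N+PD30 (0.34) also did, so 3 of 6 pairs did with PD30 and 2 of 6 with PD24. The labels name no shared day or batch.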

Additional observations from a re-analysis of the deposited data

Results flagged for a closer look

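The Nutlin response of CCND3 differed between cells with and without PD0332991 for 30 h, by an interaction of 0.76 on the log2 scale (edgeR adjusted p = 0.0304), which was what marked this result. Such an interaction was common, as 19.8% of 16113 genes tested passed, and 64.5% of those had a positive value. With its sign, the value of CCND3 was above that of 88.0% of genes tested. Without the inhibitor, CCND3 was lower in 3 of 3 Nutlin libraries than in every DMSO library. PD30 alone had lowered CCND3 by 0.67 ± 0.15 on the log2 scale against DMSO (edgeR adjusted p = 0.00425). With the inhibitor, the 3 N+PD30 libraries overlapped those of PD30. The interaction ranged from 0.63 to 0.95 over 18 alternatives, with adjusted p from 0.00532 to 0.0876. It did not pass in 6 of 12 fits without 1 library nor with 15 libraries in 1 fit (0.69, adjusted p = 0.0778).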

How the results depend on the processing

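Of 760 log2 fold changes of members under alternatives, 693 kept their direction and side of the threshold, 29 no longer passed, 19 newly passed and 19 changed sign. None of those that changed sign had passed. CCND2 kept its calls in every alternative run for PD30 and PD24 against DMSO, PD30 against PD24, N+PD30 and N+PD24 against Nutlin, N+PD24 against PD24 and N+PD30 against N+PD24, as did CCND3 for Nutlin and PD30 against DMSO. CCND1 likewise kept its calls for PD30 and PD24 against DMSO and for N+PD24 against Nutlin. For CDK6 this held in PD24 against DMSO and in N+PD30 against N+PD24. Signs changed with library totals for CDK6 in Nutlin against DMSO (-0.079) and CDK4 in PD30 against PD24 (0.015), and for CDK4 in N+PD30 against PD30 with totals (-0.071), without a filter (-0.0020) and with 15 libraries in 1 fit (-0.0072). Library totals moved the share of higher genes among those that passed from 61.1% to 43.8% in N+PD30 against PD30, from 45.8% to 30.7% in N+PD24 against PD24 (median of all genes from 0.03 to -0.09) and from 49.2% to 61.7% in N+PD30 against N+PD24.

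Leaving out 1 library at a time moved estimates across 0 in 9 cases. These were CDK6 in Nutlin against DMSO (-0.040 to 0.11), CCND3 in PD24 against DMSO (-0.16 to 0.12), CDK4 in PD30 against PD24 (-0.12 to 0.036), CCND3 in N+PD30 against Nutlin (-0.067 to 0.19), CCND2 (-0.0030 to 0.25) and CDK4 (-0.035 to 0.069) in N+PD30 against PD30, CCND3 (-0.22 to 0.013) and CDK4 (-0.012 to 0.16) in N+PD30 against N+PD24, and CDK4 in the interaction with PD24 (-0.027 to 0.19).

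The number of members that passed became 2 in Nutlin against DMSO without Nutlin replicate 1, with CCND2 added (adjusted p = 0.0223; range 1 to 2), and 3 in PD30 against DMSO with 15 libraries in 1 fit. It became 2 in N+PD30 against Nutlin with totals and with 15 libraries. In the interaction with PD30 it was 2 with DESeq2, RLE size factors and the replicate block, and 0 to 2 without 1 library. In N+PD24 against PD24 it was 2 with totals, 3 with the block and 1 to 2 without 1 library. In PD30 against PD24 it was 4 with the block and 1 to 2 without 1 library, and in N+PD30 against PD30 it was 0 to 1. CCND1 newly passed in N+PD30 against N+PD24 with 18 libraries in 1 fit (0.0442).

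Genes that passed numbered 6107 with the block and 2178 to 4117 without 1 library in PD30 against PD24, 4375 and 583 to 3384 in N+PD30 against PD30, and 8443 with the block in N+PD24 against Nutlin. In N+PD30 against N+PD24 they numbered 3220 to 4904 without 1 library. In the interaction with PD24 there were 116 with edgeR on recovered reads, 468 with a pseudocount of 5, 490 with the block and 134 to 290 without 1 library. The cause of these shifts was not tested. In the other comparisons of 2 groups, not all same-numbered libraries deviated together, and in the interactions only some pairs of groups did. There the block added CDK4 in PD24 against DMSO (0.00697) and CDK6 in the interaction with PD30 (0.0458) and changed no other call of a member. The members had at least 525 counts in each library, and the precision is limited by 3 libraries per group.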
